A study of Arabidopsis thaliana with 20 samples.

Results

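The transcripts described here are the 100 with the most 21 and 22 nt small RNA on both strands in Col-0 flower buds. Small RNA counts of both Col-0 libraries were summed for each of 27162 transcripts. A transcript qualified where at least 50% of its counts were 21 or 22 nt long and 20 to 80% of its counts lay on the reverse strand, which left 2499 of 25793 transcripts with a count. The 100 with the largest 21-22 nt count were taken. The members were thus chosen by their Col-0 small RNA counts, which are given as a description without a test.

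Small RNA of 21 and 22 nt on both strands of a transcript is the usual product of the RDR6 pathway. A transcript cut by a microRNA or otherwise left without an end is copied into double-stranded RNA by the polymerase RDR6 with its partner SGS3. DCL4 then cuts that RNA into 21 nt pieces and DCL2 into 22 nt pieces, which Argonaute proteins such as AGO1 load. The 24 nt class comes from another branch, in which RDR2 and DCL3 act on transposons and repeats. In Arabidopsis, known sources of secondary small RNA among coding genes are the transcripts of a cluster of pentatricopeptide repeat (PPR) proteins, of the auxin receptors TIR1, AFB2 and AFB3, and of some NLR immune receptors.

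Unopened flower buds of Arabidopsis thaliana were sampled at about 4 weeks of growth in 16 h of light and 8 h of dark. The genotypes were the double mutant dxo1 rdr6, the mutant dxo1 and Col-0, the standard laboratory accession. The labels name no alleles. DXO1 belongs to a family of enzymes that remove NAD caps and other incomplete caps from RNA. Small RNA was read in all 3 genotypes. RNA captured by its NAD cap, total RNA and polyA RNA were read in dxo1 and Col-0. GMUCT, an assay for polyadenylated RNA whose 5′ end has lost its cap or was cut, was done in dxo1. Each of the 10 groups holds 2 libraries. No label says whether these came from separate plants, so p-values measure the spread between libraries, which may be technical.

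Several libraries stand apart. Both dxo1 rdr6 small RNA tables held even values in every one of 38514 and 43885 cells above 0, as they would if each read were entered 2 times, while 65.2 to 76.9% of such cells were odd in the other small RNA libraries. In the dxo1 rdr6 libraries 92.1 and 88.0% of counts were 25 nt long, against 9.66 to 13.6% in the dxo1 and Col-0 libraries. Total counts were 2785970 and 3103008 in dxo1 rdr6, 3625112 and 137603 in dxo1, and 1483736 and 4087476 in Col-0. The 21-22 nt counts were 47896 and 73598 in dxo1 rdr6, 885643 and 34049 in dxo1, and 274235 and 807524 in Col-0. The library labelled dxo1 replicate 1 went against its label in 4 assays. DXO1 stood there at 511, 509, 1549 and 16711 CPM (counts scaled to a common library total) in total RNA, polyA RNA, GMUCT and 21-22 nt small RNA, against 9.27, 19.2, 19.8 and 58.7 CPM in dxo1 replicate 2. Col-0 had 28.5 and 25.2 CPM of DXO1 in total RNA and 48.5 and 48.8 CPM in polyA RNA. In NAD capture DXO1 stood at 23.9 and 23.7 CPM in dxo1 replicates 1 and 2, and at 10.5 and 33.8 CPM in Col-0. The NAD capture library labelled dxo1 replicate 1 thus showed no such excess. Counts of called members are therefore also given without the libraries labelled dxo1 replicate 1. Outside the 21-22 nt class, the share of all features called was not counted in these fits. Those counts show only how far the calls depend on a library, and are no result about the members. RDR6 itself could not be checked in dxo1 rdr6, from which only small RNA was read. Gene counts in the other assays were 1144896 to 30883266 per library. The flower bud markers AP1, AP3, PI, AG and SEP3 were all present in every library with gene counts. Their summed level was 433 CPM in NAD capture Col-0 replicate 1 and 1279 CPM in replicate 2, against 1291 and 1237 CPM in dxo1 NAD capture. The TMM factor of NAD capture Col-0 replicate 1 was 0.755, against 1.35 to 1.36 in the other NAD capture libraries.

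All 100 members are annotated as protein-coding in the RefSeq table of the TAIR10.1 assembly. They lie on all 5 nuclear chromosomes, with 37 on chromosome 1. Of 27 listed PPR genes, 14 were members, and 10 of these lie between AT1G62590 and AT1G63400 on that chromosome. Of the 4 listed auxin receptor genes 3 were members (TIR1, AFB2 and AFB3), as were 3 of 24 NLR genes (AT5G43730, AT5G43740 and AT5G38850) and 4 of 7 other microRNA targets with reported secondary small RNA (AGO1, HAM1, HAM2 and PHO2). ARF3 was the 1 member among 9 listed targets of trans-acting small RNA. AGO1 and DCL1 were the 2 members among 16 listed genes of the RDR6 pathway and of RNA decay, a list that also holds RDR1, the exonuclease XRN4, the helicase SKI2 and DXO1 itself. None of 4 listed coding genes that give small RNA from highly expressed transcripts was a member, and the 8 TAS loci were not analysed here. Of the 100 members, 74 were in no list.

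Counts of 21-22 nt small RNA among the members were very uneven. AT3G06435, which the RefSeq table gives no name, held 216233 of them over both Col-0 libraries. The next were CHX18, a cation/H+ exchanger, with 10111, AT4G21366 with 8298 and AT5G22960 with 5366. PPR genes filled 5 of the next 6 places, with 5172 counts on AT1G63150, 4037 on RPF3, 3575 on AT1G63080, 3167 on AT1G62914 and 2459 on AT1G62910, and AT5G39370 came between them with 3432. The median member had 141. At the lower end stood AZG1 with 76, GTL1 with 75 and RLP40 with 73, and just outside were DXO1 with 72 and UGT71B1 and AT3G47940 with 71 each. At the 21-22 nt share threshold, TIR1 with 51.0% and RGL1 with 51.5% were the nearest inside, and AT2G31141 with 49.4% and AT3G44570 with 49.0% the nearest outside. At the lower strand threshold PFK7 with 20.6% and PHV with 20.8% reverse counts were inside, and CXE16 with 19.8% and AT3G44430 with 18.2% outside. At the upper one PLAT1 with 79.4% and AT4G27020 with 76.2% were inside, and AT1G64583 with 80.3% and AT1G80380 with 80.6% outside.

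Small RNA of 21 nt was the larger class on 87 members in Col-0, and 13 carried more 22 nt than 21 nt. AT3G06435 was among these 13, with 22 nt making up 75.7 and 77.1% of its 21-22 nt counts in dxo1 rdr6, 77.7 and 74.2% in dxo1, and 76.9 and 76.5% in Col-0. The reverse strand share of these counts was 39.8 and 39.5% in dxo1 rdr6, 40.0 and 39.2% in dxo1, and 38.9 and 38.2% in Col-0. Within its 21-22 nt counts, the make-up of this largest source was thus nearly the same in all 6 libraries. Over all lengths it differed. There 21-22 nt made up 50.3% of its counts in dxo1 rdr6, 75.5% in dxo1 and 69.6% in Col-0. The 24 nt class made up 35.2, 18.4 and 24.4%, and the reverse strand 47.5, 40.0 and 38.6%, in the same order. Other members with mostly 22 nt counts, named after their values were seen, were LBA1, which encodes the nonsense-mediated decay helicase UPF1, ABCE2, NAP12 and AT2G06904. The RefSeq spans of 34 members overlap another gene, against 27.5% of all transcripts, and in 4 of them that gene is a microRNA gene. MIR3933 overlaps AT5G39370, MIR5652 overlaps AT1G63130, MIR838 overlaps DCL1 and MIR5661 overlaps AT4G19080, so small RNA of either cannot be told apart there.

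The members' share of each library's 21-22 nt counts was 38.5 and 30.1% in dxo1 rdr6, 25.9 and 27.5% in dxo1, and 26.4 and 26.1% in Col-0. AT4G21366 held 23.7 and 15.1% in dxo1 rdr6, 0.453 and 0.235% in dxo1, and 0.828 and 0.746% in Col-0. With it left out of the members' sum, but not of the library total, the members held 14.8 and 14.97% in dxo1 rdr6. They then held 25.5 and 27.3% in dxo1, and 25.6 and 25.4% in Col-0. With AT3G06435 left out as well, they held 10.6 and 11.8% in dxo1 rdr6. The dxo1 libraries then had 12.2 and 14.7%, and the Col-0 libraries 5.43 and 5.47%. A share below that of Col-0 in dxo1 rdr6 thus did not hold without AT3G06435. AT3G06435 alone held 4.15 and 3.21% in dxo1 rdr6, 13.3 and 12.5% in dxo1, and 20.2 and 19.9% in Col-0. The 14 PPR genes held 1.17 and 0.951% in dxo1 rdr6, 2.79 and 2.76% in dxo1, and 2.13 and 2.22% in Col-0. The shares of AT3G06435 and of the PPR genes were lowest in dxo1 rdr6 with no overlap between genotypes. Of the members' 21-22 nt counts outside AT3G06435, 14.7 and 21.8% lay on the reverse strand in dxo1 rdr6, 47.7 and 48.3% in dxo1, and 47.0 and 47.6% in Col-0. This low reverse share of dxo1 rdr6 lay in AT4G21366. Over the 98 members without AT3G06435 and AT4G21366, a sum formed after seeing the data, the reverse share was 46.4 and 49.2% in dxo1 rdr6, 48.2 and 48.7% in dxo1, and 49.0 and 49.4% in Col-0. The sums of both strands were thus close to even in all 3 genotypes, where the rule asked for both strands in Col-0 only. Among 65 members with at least 10 such counts in both mutants, the reverse share was lower in dxo1 rdr6 in 33, and its median was 50.0% in dxo1 rdr6, 50.5% in dxo1 and 48.9% in Col-0. It was under 20% for 11 members in dxo1 rdr6 and for 1 in dxo1. If each read was entered 2 times in dxo1 rdr6, 10 counts there stand for fewer reads than in dxo1. Shares of single members then vary more by sampling in dxo1 rdr6.

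Both share criteria of the rule were met by 16 of 94 members with at least 10 counts in dxo1 rdr6 and by 96 of 99 in dxo1. The minimum of 10 counts has the same limit on reads in dxo1 rdr6 here. The median member had 22.6% of its counts at 21-22 nt in dxo1 rdr6, 85.2% in dxo1 and 78.0% in Col-0. Counts of 25 nt made up 54.7 and 38.3% of the counts on the 98 members without AT3G06435 and AT4G21366 in dxo1 rdr6, 1.47 and 1.91% in dxo1, and 3.08 and 2.55% in Col-0. This length moved with the genotype in the whole libraries as well, and its part in the lower 21-22 nt share was not tested.

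**Figure D1:**
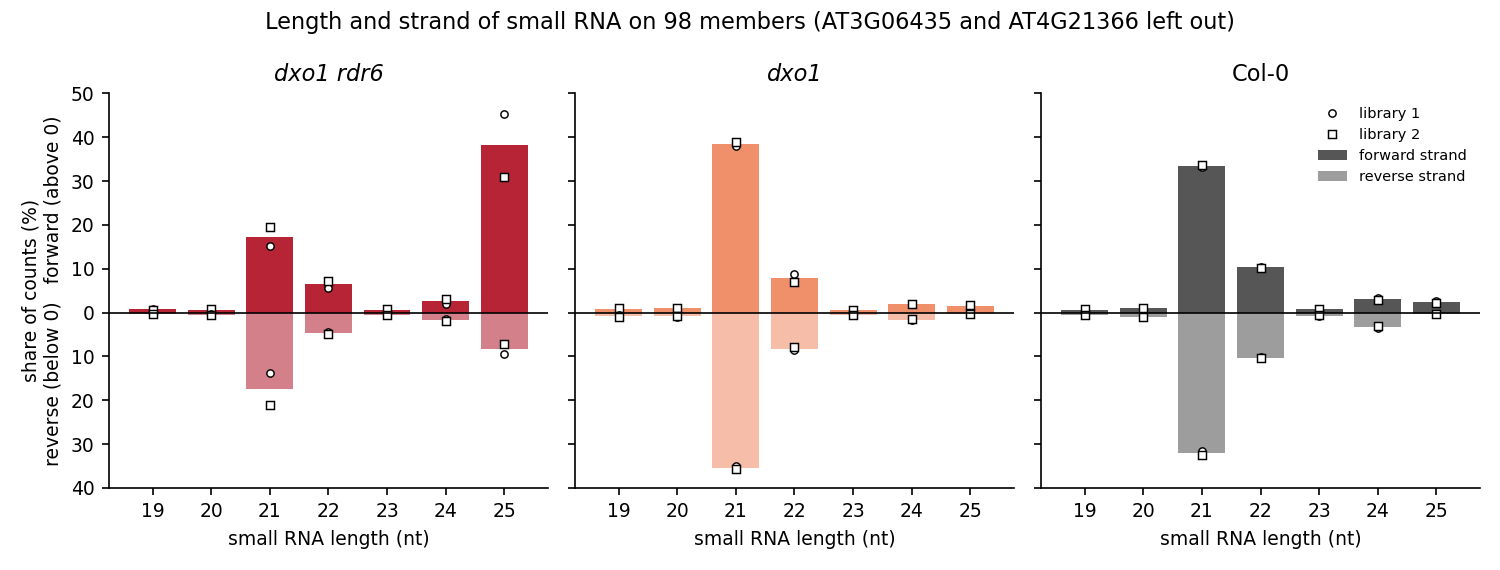
Share of the small RNA counts on 98 members (AT3G06435 and AT4G21366 left out) by length in nt, with the forward strand above 0 and the reverse strand below. Bars are the mean of 2 libraries and points the libraries, in dxo1 rdr6, dxo1 and Col-0. The 21 nt bars are close to even on both strands in each genotype, and in dxo1 rdr6 they are shorter and a 25 nt class, mostly forward, is the largest.

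Levels of 21-22 nt small RNA in dxo1 and Col-0 are compared as a description, since the Col-0 libraries chose the members. Levels are CPM of the 21-22 nt counts of each library, scaled by TMM factors. The factors were 1.22 and 1.18 in dxo1 rdr6, 1.21 and 1.47 in dxo1, and 0.67 and 0.58 in Col-0. They raise Col-0 levels against both mutants, so moderate differences from Col-0 depend on the scaling. Both dxo1 libraries were above both Col-0 libraries for 24 members, where 31.7% of all 1928 tested transcripts were, and below them for 62, where 52.1% were. The median ratio of dxo1 to Col-0 was 0.636 over the members and 0.647 over all tested transcripts. The medians were thus close, with a smaller part of the members above Col-0 and a larger part below it. Ranking on Col-0 counts favours transcripts that are high there, so no conclusion on the members is drawn from these shares. In dxo1, 13 members had over 4 times the Col-0 level, and for 23 the Col-0 level was over 4 times that of dxo1. How many of all tested transcripts did so was not counted.

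The members of this paragraph were named after their values were seen. EXO, the brassinosteroid-responsive protein EXORDIUM, had 10798 and 15734 CPM in dxo1 rdr6, 15717 and 41541 CPM in dxo1, and 292 and 162 CPM in Col-0. GAE6, an epimerase that makes the pectin precursor UDP-galacturonate, had 21754 and 21814 CPM in dxo1 rdr6, 26223 and 14780 CPM in dxo1, and 358 and 330 CPM in Col-0. AT1G06000 had 21244 and 25414 CPM in dxo1 rdr6, 12965 and 8131 CPM in dxo1, and 231 and 202 CPM in Col-0. For these 3 members both mutants were far above Col-0, with mean ratios of dxo1 to Col-0 of 126, 59.5 and 48.7. GTE7, a bromodomain protein, had 118 and 213 CPM in dxo1 rdr6, 4887 and 6290 CPM in dxo1, and 115 and 166 CPM in Col-0. Its dxo1 libraries stood alone, and dxo1 rdr6 overlapped with Col-0. In the other direction CHX18 had 432 and 400 CPM in dxo1 rdr6, 1789 and 1459 CPM in dxo1, and 15838 and 17837 CPM in Col-0, so that the 3 genotypes were apart. AFB3 had 118 and 26.7 CPM in dxo1 rdr6, 166 and 191 CPM in dxo1, and 930 and 1272 CPM in Col-0. AFB2 had 39.3 and 213 CPM in dxo1 rdr6, 235 and 167 CPM in dxo1, and 851 and 1136 CPM in Col-0. For both auxin receptors every mutant library was below both Col-0 libraries.

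The comparison of dxo1 rdr6 with dxo1 asks which sources lose their 21-22 nt small RNA when RDR6 is mutated as well. Neither of its sides is a library of the rule. The Col-0 libraries that chose the members still entered its filter on low counts, its scaling and its estimate of spread. Counts of called members are thus not independent of the rule. Relative to the other 21-22 nt counts of a library, 24 of 100 members fell in dxo1 rdr6, where 18.5% of all tested transcripts did, and 10 rose, where 9.23% did. Of the 14 PPR members 8 fell, AGO1, DCL1, ARF3, CHX18 and AT3G06435 fell too, and AT4G21366 showed the largest rise. The median log2 difference was −0.77 over the members and −0.47 over all 1928 transcripts. Adjusted p-values are from edgeR's quasi-likelihood test, adjusted over all transcripts by the Benjamini-Hochberg method with a threshold of 0.05, and 50 members had an unadjusted p under it. The libraries of the 2 mutants did not overlap for 60 members, against 57.6% of all transcripts, and dxo1 rdr6 was the lower one for 43 of the 60.

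These levels are relative to the 21-22 nt class, which was 1.72 and 2.37% of the dxo1 rdr6 libraries and 24.4 and 24.7% of the dxo1 libraries. Relative to all small RNA counts, 97 members were lower and 1 higher, with 96.1 and 0.191% of all transcripts, and the median over all transcripts moved to −4.32. Relative to the 24 nt counts, 45 were lower and 6 higher, with 34.5 and 4.84% of all transcripts. All 24 members that fell were also called lower under each of these scalings. Of the 10 that rose only AT4G21366 stayed higher under each, while the other 9 had values below 0 relative to all small RNA counts. Both scalings lowered the median over all transcripts, to −4.32 and −1.10. Falls were thus favoured to stay called and rises to be lost, so neither outcome is a check of the calls. Counted over all lengths, 73 members were lower and 0 higher by edgeR, with 23.3 and 12.9% of all transcripts. The rule chose members for their 21-22 nt share, and this class was a far smaller part of the dxo1 rdr6 libraries. A fall over all lengths was thus favoured by the choice of members and is no result about them. On the reverse strand alone 23 of 84 were lower and 7 higher, with 21.7 and 12.7% of all transcripts, and on the forward strand alone 36 of 79 were lower and 6 higher, with 33.4 and 7.14%. In a fit of only the dxo1 and dxo1 rdr6 libraries 59 members passed the filter on low counts. Of these 59, 12 were lower, with 15.1% of all transcripts. The other members passed the filter only with the Col-0 libraries in the fit. Without the library labelled dxo1 replicate 1, 17 of 80 tested members were lower and 6 higher, and 9.28 and 2.51% of all transcripts were. Without dxo1 replicate 2, 47 of 100 were lower and 4 higher, and 18.7 and 1.51% of all transcripts were. The members' share of lower calls against that of all transcripts thus depended on the library left out and on the lengths counted. With 21-22 nt counts this low in dxo1 rdr6, 12 members had none in either library, and a fold against them is a lower bound set by 3 reads, or 6 deposited counts, over both libraries.

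**Figure D2:**
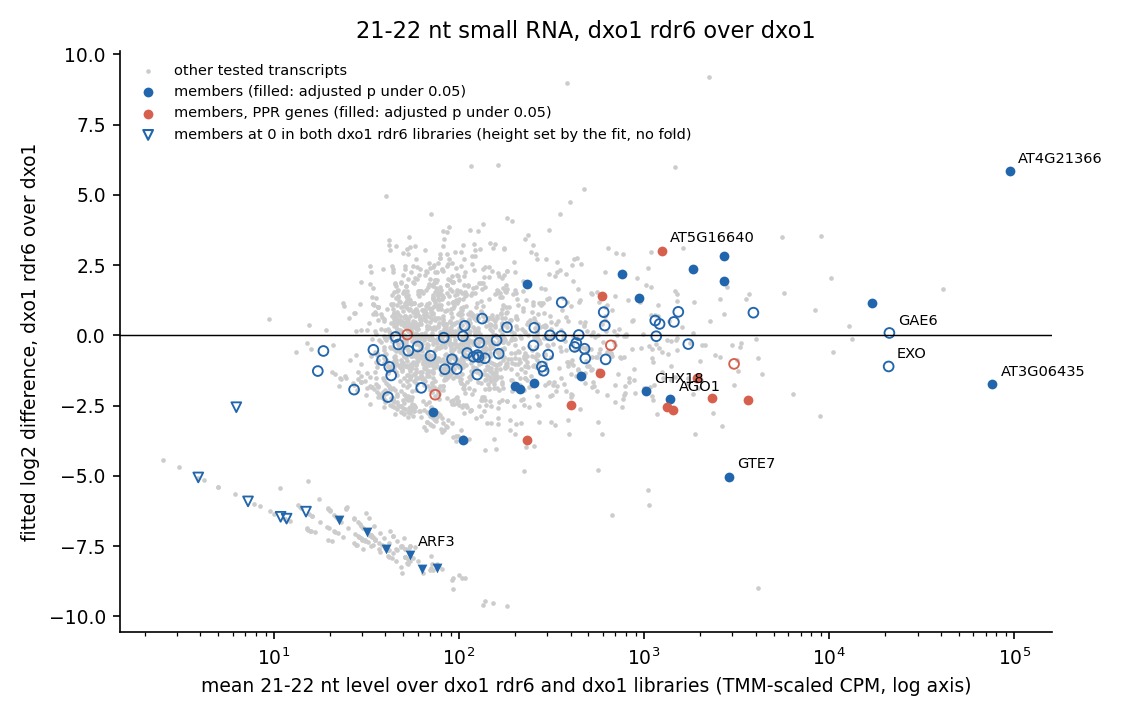
Fitted log2 difference of 21-22 nt small RNA, dxo1 rdr6 over dxo1, against the mean level of the 4 libraries in TMM-scaled CPM on a log axis, for 1928 transcripts (grey), members (blue) and PPR members (red). Filled symbols have an adjusted p under 0.05, and triangles mark members at 0 in both dxo1 rdr6 libraries, whose height is set by the fit and is no fold. Most PPR members lie below the line, and AT4G21366 lies above all other members.

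The PPR members encode RNA-binding proteins that mostly act in organelles, and their transcripts are known targets of microRNAs and of small RNA from TAS2. RPF3, which is needed to process the 5′ ends of some mitochondrial messengers, had 903 and 747 CPM in dxo1 rdr6, 3998 and 3707 CPM in dxo1, and 5881 and 7295 CPM in Col-0. It fell by 2.23 on the log2 scale (SE 0.38, adjusted p = 0.00159). AT1G62914 had 432 and 373 CPM in dxo1 rdr6, 2922 and 2033 CPM in dxo1, and 4702 and 5688 CPM in Col-0, and fell by 2.64 (SE 0.41, adjusted p = 0.000878). AT1G63150 had 1649 and 853 CPM in dxo1 rdr6, 6796 and 5261 CPM in dxo1, and 7776 and 9251 CPM in Col-0, and fell by 2.28 (SE 0.42, adjusted p = 0.00256). In all 3 the dxo1 rdr6 libraries lay below every other library, and Col-0 above both mutants. AT1G63130, AT1G63400, AT1G62910 and AT1G62590 also fell, by 2.56, 2.47, 1.51 and 1.33. AT1G63330 had 39.3 and 26.7 CPM in dxo1 rdr6, 405 and 454 CPM in dxo1, and 444 and 670 CPM in Col-0. That rests on 2 reads in dxo1 rdr6, and the pooled level was 12.8-fold lower than in dxo1 (95% counting interval 3.53 to 106).

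AT1G63080 had 2278 and 1787 CPM in dxo1 rdr6 and 4378 and 3803 CPM in dxo1, with an adjusted p of 0.0533, and RPF2, AT1G12300 and AT1G12620 did not pass either. AT5G16640 and AT1G12775 rose. The median log2 difference of the 14 was −1.81, against −0.77 over all members. PPR genes may be alike in sequence, which was not examined here, and the counting could then split their reads. A value of a single gene is thus uncertain. AT5G16640, AT1G12775, AT1G12300 and AT1G12620 lie outside the cluster between AT1G62590 and AT1G63400. AT1G62914, AT1G63130, AT1G63330 and AT1G63400 were called lower with any 1 of the 6 small RNA libraries left out, and AT1G62910, RPF3, AT1G63150 and AT1G62590 were so with either dxo1 library left out but not without dxo1 rdr6 replicate 2.

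**Figure D3:**
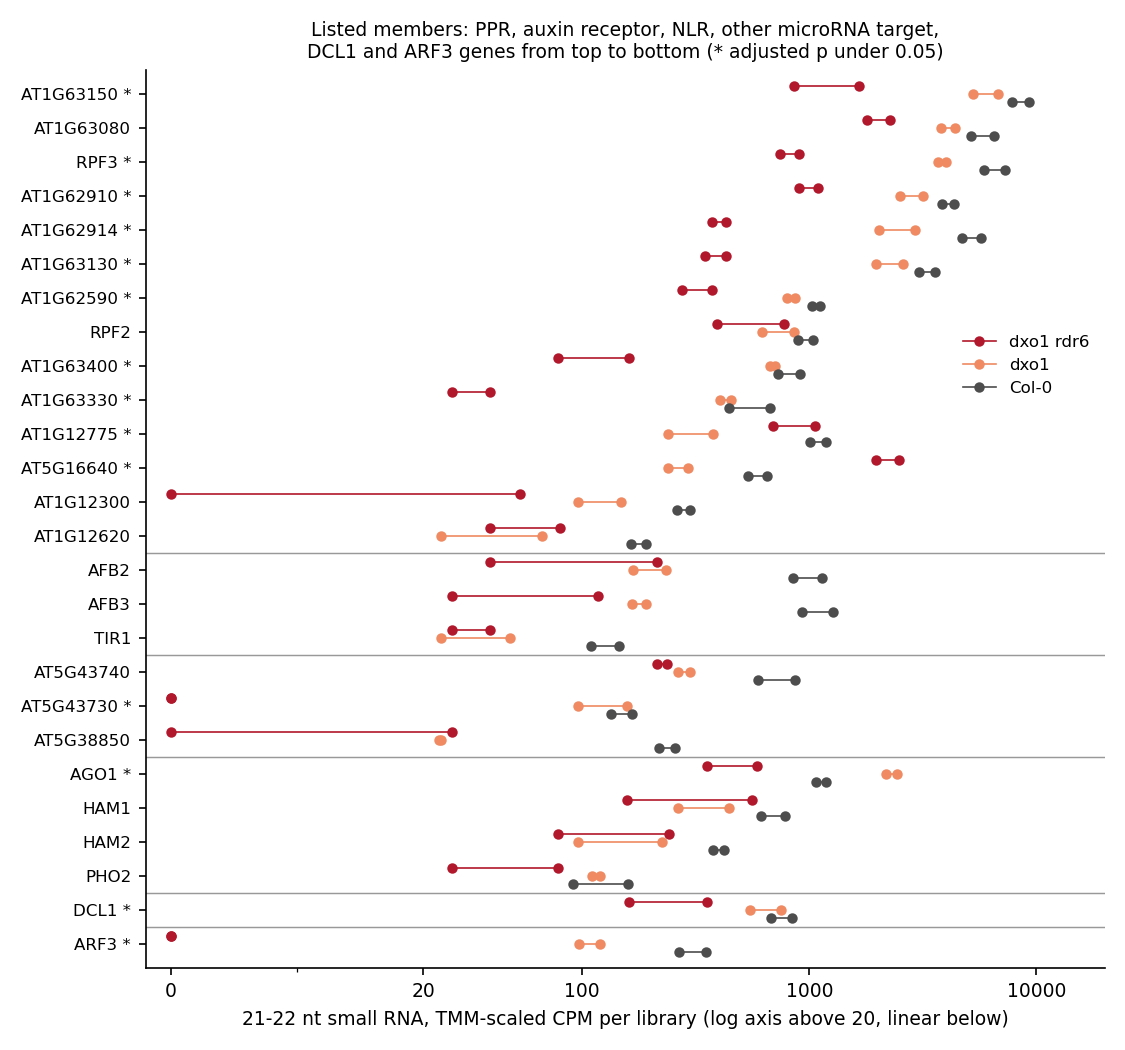
Level of 21-22 nt small RNA in TMM-scaled CPM, on an axis that is linear below 20 and log above, for the 26 members in a gene list. Each point is a library of dxo1 rdr6 (top of each line), dxo1 or Col-0, and lines join both libraries of a genotype. An asterisk marks an adjusted p under 0.05 for dxo1 rdr6 over dxo1; the upper PPR genes and AGO1 have dxo1 rdr6 below dxo1 with a gap, while the auxin receptors, HAM1 and HAM2 have mutant libraries that overlap or nearly do.

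Among the genes that make or use small RNA, AGO1, the main Argonaute of microRNAs and a target of miR168, had 353 and 587 CPM in dxo1 rdr6, 2429 and 2176 CPM in dxo1, and 1075 and 1188 CPM in Col-0. It fell by 2.27 on the log2 scale (SE 0.40, adjusted p = 0.00172), and dxo1 was the highest genotype. The fall was called in each of the 6 fits that left out a library. DCL1, the microRNA-processing Dicer and a target of miR162, had 353 and 160 CPM in dxo1 rdr6, 751 and 550 CPM in dxo1, and 680 and 839 CPM in Col-0. It fell by 1.44 (SE 0.45, adjusted p = 0.0319), and the call was lost without the library labelled dxo1 replicate 1 and without dxo1 rdr6 replicate 2. Of the 16 listed genes of the RDR6 pathway and of RNA decay, 5 had enough 21-22 nt counts to test and 4 fell, which were AGO1, DCL1 and, named after their values were seen, AGO2 and DXO1. AGO2 fell by 2.91 (adjusted p = 0.0344), with an adjusted p of 0.0933 by DESeq2 and of 0.279 without the library labelled dxo1 replicate 1. The call of DXO1 rests on the high DXO1 count of that library, and without it DXO1 was not tested.

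ARF3, an auxin response factor cut by trans-acting small RNA from TAS3, had no count in either dxo1 rdr6 library, 96.9 and 120 CPM in dxo1, and 267 and 352 CPM in Col-0. It was at least 2.05-fold lower in dxo1 rdr6 than in dxo1 (adjusted p = 0.00918). The NLR gene AT5G43730 likewise had none in dxo1 rdr6, 157 and 95.7 CPM in dxo1, and 134 and 166 CPM in Col-0, at least 3.24-fold lower in dxo1 rdr6 (adjusted p = 0.00453). PFK7, a phosphofructokinase, had none in dxo1 rdr6, 136 and 167 CPM in dxo1, and 146 and 155 CPM in Col-0, at least 2.88-fold lower (adjusted p = 0.00412). For these 3 genes the small RNA present in 4 libraries was not detectable at the depth of dxo1 rdr6. AT3G62200 and AT4G26600 were at least 1.88-fold and 1.18-fold lower, and AT3G19890 was called lower with a dxo1 level under the floor.

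The auxin receptors did not pass. TIR1 had 39.3 and 26.7 CPM in dxo1 rdr6, 47.9 and 23.9 CPM in dxo1, and 109 and 145 CPM in Col-0. For TIR1 and AFB2 the mutants overlapped, and for AFB3 the adjusted p was 0.115. HAM1 and HAM2, GRAS regulators of the meristem cut by miR171, overlapped as well, with 157 and 560 CPM of HAM1 in dxo1 rdr6 against 442 and 263 CPM in dxo1, and 78.5 and 240 CPM of HAM2 in dxo1 rdr6 against 224 and 95.7 CPM in dxo1. PHO2, a target of miR399, had 78.5 and 26.7 CPM in dxo1 rdr6 and 110 and 120 CPM in dxo1. The NLR genes AT5G43740, with 236 and 213 CPM in dxo1 rdr6 against 297 and 263 CPM in dxo1, and AT5G38850, with 0 and 26.7 CPM against 23.4 and 23.9 CPM, did not pass. A single read was worth 39.3 and 26.7 CPM in the dxo1 rdr6 libraries, so differences in genes this low were largely not detectable.

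Outside the lists, AT3G06435 had 38992 and 31467 CPM in dxo1 rdr6, 130892 and 102071 CPM in dxo1, and 336079 and 382484 CPM in Col-0. It fell by 1.73 on the log2 scale (SE 0.39, adjusted p = 0.00748), with the 3 genotypes apart, but the call was lost without either dxo1 rdr6 library. CHX18 fell by 1.98 (SE 0.40, adjusted p = 0.00416) and did not overlap between the mutants. GTE7 showed the largest fall that has a fold, of 5.03 (SE 0.48, adjusted p = 1.79e-05). GTL1, a trihelix transcription factor, AT1G49700 and AT3G23690 fell by 1.90, 1.79 and 1.68. RLP40, a receptor-like protein, and AT1G04210 fell with 1 read in dxo1 rdr6, pooled 14.7-fold (95% counting interval 2.62 to 585) and 6.23-fold (1.09 to 249) under dxo1.

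In dxo1 rdr6 10 members rose, and several of them also differed between the mutants in strand. AT4G21366 had 223077 and 148348 CPM in dxo1 rdr6, 4471 and 1913 CPM in dxo1, and 13797 and 14326 CPM in Col-0. It rose by 5.84 on the log2 scale (SE 0.54, adjusted p = 1.65e-05), and dxo1 rdr6 was above all other libraries. Its reverse strand held 0.422 and 0.503% of these counts in dxo1 rdr6, 33.4 and 26.3% in dxo1, and 33.3 and 34.4% in Col-0. The forward 21 nt class alone made up 82.2 and 82.8% of them in dxo1 rdr6. On the reverse strand alone the log2 difference was −0.26, so the rise lay in forward counts. AT4G21366 overlaps the annotated pseudogene PSEUDOSRKA.

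The PPR gene AT5G16640 had 2474 and 1973 CPM in dxo1 rdr6, 293 and 239 CPM in dxo1, and 535 and 651 CPM in Col-0, and rose by 3.01 (SE 0.39, adjusted p = 0.000296). Its forward 21 nt class was 96.8 and 98.6% of these counts in dxo1 rdr6, and its reverse strand held 1.59 and 0%, against 47.5 and 30.0% in dxo1. AT1G79060 had 4673 and 4800 CPM in dxo1 rdr6 and 556 and 813 CPM in dxo1, and rose by 2.84 (SE 0.40, adjusted p = 0.000518). Its reverse share was 4.2 and 3.89% in dxo1 rdr6, against 40.5 and 41.2% in dxo1. AT5G42090 had 3573 and 5013 CPM in dxo1 rdr6 and 1300 and 909 CPM in dxo1, rose by 1.93 (SE 0.38, adjusted p = 0.00378), and had reverse shares of 7.69 and 6.91% in dxo1 rdr6 against 51.0 and 63.2% in dxo1. In these 4 genes the small RNA of dxo1 rdr6 was nearly all forward, and on the reverse strand alone the log2 difference was below 0 in each.

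In AT5G39370, AT1G12775 and AT7SL-1 most counts of dxo1 rdr6 were reverse. AT5G39370, which overlaps MIR3933, had 2670 and 3493 CPM in dxo1 rdr6, 737 and 407 CPM in dxo1, and 5352 and 6064 CPM in Col-0, and rose by 2.36 (SE 0.41, adjusted p = 0.00172). Its reverse share was 75.0 and 72.5% in dxo1 rdr6, 50.9 and 47.1% in dxo1, and 48.7 and 49.0% in Col-0. The PPR gene AT1G12775 had 1060 and 693 CPM in dxo1 rdr6 and 376 and 239 CPM in dxo1, rose by 1.40 (adjusted p = 0.023), and was 92.6 and 88.5% reverse in dxo1 rdr6 with no 22 nt count. AT7SL-1, whose symbol names the RNA of the signal recognition particle, had 1414 and 1307 CPM in dxo1 rdr6 and 575 and 478 CPM in dxo1, rose by 1.34 (adjusted p = 0.0161), and was 97.2 and 89.8% reverse there. AP2, the floral regulator cut by miR172, had 982 and 1547 CPM in dxo1 rdr6, 321 and 191 CPM in dxo1, and 772 and 877 CPM in Col-0, rose by 2.19 (SE 0.41, adjusted p = 0.00283), and had no 22 nt count in dxo1 rdr6. Its reverse share was 68.0 and 51.7% in dxo1 rdr6 and 53.5 and 75.0% in dxo1, so that it overlapped, but the 75.0% rests on 8 counts. AT1G06000 rose by 1.14 (adjusted p = 0.0391) with 42.7% reverse counts in both dxo1 rdr6 libraries, against 48.6 and 49.4% in dxo1. UGT71C3, a glycosyltransferase, rose by 1.83 (adjusted p = 0.0134), and on the reverse strand alone its log2 difference was −0.49. Its reverse shares were 11.1 and 7.69% in dxo1 rdr6 against 46.8 and 83.3% in dxo1, where the 83.3% rests on 6 counts. Only AT4G21366, AT5G16640 and AT1G79060 were called higher with any 1 of the 6 libraries left out.

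In the 24 nt class, which the rule did not rank on, 33 members had enough counts to test, with the Col-0 libraries in the filter. Relative to the other 24 nt counts of a library, 14 of them rose in dxo1 rdr6, where 22.7% of 2009 transcripts did, and 3 fell, where 27.9% did. That class was 4.64 and 7.51% of the dxo1 rdr6 libraries and 50.7 and 43.8% of the dxo1 libraries. Levels relative to all small RNA counts were not tested here, and the calls also depended on the filter, as given at the end. The other 67 members did not pass the filter on low counts. The median log2 difference was 1.05 over these and −0.46 over all tested transcripts. AT4G21366 had 3758 and 3090 CPM of 24 nt counts in dxo1 rdr6 and 261 and 106 CPM in dxo1, and rose by 4.02 (SE 0.36, adjusted p = 0.000177). AT5G39370 had 60.3 and 68.9 CPM in dxo1 rdr6 and 7.87 and 0 CPM in dxo1, and rose by 3.10 (adjusted p = 0.00281). SOS5, a fasciclin-like arabinogalactan protein, had 121 and 45.9 CPM in dxo1 rdr6 and 10.5 and 13.3 CPM in dxo1, and AT5G42090 had 80.4 and 115 CPM in dxo1 rdr6 and 17.3 and 13.3 CPM in dxo1, and they rose by 2.79 and 2.56. In all 4 genes the mutants did not overlap. GTE7 and the PPR gene AT1G63080 had no 24 nt count in dxo1 rdr6, against 124 and 79.6 CPM and 54.6 and 39.8 CPM in dxo1, so they were at least 5.59-fold and 2.46-fold lower. RPF3 had 0 and 11.5 CPM in dxo1 rdr6 and 51.9 and 53.1 CPM in dxo1 (adjusted p = 0.0248), on 1 read in dxo1 rdr6. Without the library labelled dxo1 replicate 1, 5 members rose and 1 fell of 27.

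The polyA libraries show whether the source transcripts themselves differed between dxo1 and Col-0. Of 89 members tested, 12 were higher in dxo1, where 15.6% of 19730 genes were, and 8 lower, where 14.5% were. The auxin receptors AFB2 and AFB3 rose slightly, the PPR members did not pass in either direction, and NAP12 and GAE6 fell. The median log2 difference was −0.07 over the members and 0.01 over all genes. AFB3 had 147 and 145 CPM in dxo1 and 108 and 110 CPM in Col-0, and rose by 0.42 (SE 0.08, adjusted p = 0.01). AFB2 had 61.9 and 54.8 CPM in dxo1 and 40.3 and 45 CPM in Col-0, and rose by 0.45 (SE 0.10, adjusted p = 0.0192). In both genes dxo1 lay above Col-0 in polyA RNA and below it in 21-22 nt small RNA. TIR1, with 122 and 109 CPM in dxo1 and 126 and 117 CPM in Col-0, did not pass.

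Of the 13 PPR members tested, none passed in either direction by edgeR's quasi-likelihood test or by DESeq2, 3 had an unadjusted p under 0.05, and the median log2 difference was −0.16. AGO1 had 354 and 338 CPM in dxo1 and 350 and 322 CPM in Col-0, and ARF3 57.5 and 49.0 CPM in dxo1 and 49.4 and 45.2 CPM in Col-0, and neither passed. Members with the largest rises were AT1G13360, with 76.7 and 93.9 CPM in dxo1 and 44.0 and 43.4 CPM in Col-0 (0.96, SE 0.11, adjusted p = 0.00221), the glycosyltransferases UGT71C3 and UGT75B1 (0.95 and 0.82), and AT4G26600 (0.72). GAE6 had 134 and 166 CPM in dxo1 and 272 and 277 CPM in Col-0, and fell by 0.87 (SE 0.12, adjusted p = 0.00335). Its 21-22 nt small RNA was far higher in dxo1, while AT1G06000 rose in polyA RNA as well, by 0.69, with 292 and 325 CPM in dxo1 and 198 and 186 CPM in Col-0. NAP12 had 2.37 and 1.20 CPM in dxo1 and 7.28 and 6.76 CPM in Col-0, and fell by 1.94 (SE 0.30, adjusted p = 0.00501). IRT1, the iron transporter, and AT4G33150 fell by 0.80 and 0.75.

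The summed level of 5 tapetum markers was 1423 and 592 CPM in dxo1 polyA RNA and 2882 and 3073 CPM in Col-0, and that of 5 late pollen markers 232 and 101.3 CPM in dxo1 and 636 and 615 CPM in Col-0, with no marker at 0. Their part in the members' differences was not tested, and fewer cells of a type and less RNA per cell cannot be told apart in whole buds. Without the polyA library labelled dxo1 replicate 1, 15 members were higher and 21 lower of 90, and without Col-0 replicate 1 none passed. Of the 16 listed genes of the RDR6 pathway and of RNA decay, 1 rose in polyA RNA. This was AGO2, an Argonaute of antiviral defence, with 49.2 and 56.6 CPM in dxo1 and 27.0 and 27.8 CPM in Col-0 (0.94, SE 0.11, adjusted p = 0.00196). RDR6 had 29.6 and 26.7 CPM in dxo1 and 28.7 and 27.2 CPM in Col-0.

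NAD capture enriches RNA with an NAD cap, and its ratio to total RNA was compared within each genotype. In dxo1, 22 of 85 tested members were lower in NAD capture than in total RNA, where 18.1% of 17718 genes were, and 8 were higher, where 18.4% were. In Col-0, 12 members were lower, where 10.7% of genes were, and 7 higher, where 13.5% were. By TMM scaling all 3 auxin receptors and AGO1 were lower in both genotypes, and PORB and PLAT1 were higher in both. With library totals, of the auxin receptors only AFB2 was called in either genotype, AGO1 lost its call in dxo1 (−0.64, adjusted p = 0.0922), and PORB and PLAT1 kept theirs. With polyA RNA as denominator the 3 auxin receptors and AGO1 were called in dxo1, while AFB2 and AFB3 lost the call in Col-0 (adjusted p = 0.22 and 0.0804) and PORB in dxo1 (0.59, adjusted p = 0.0583) and in Col-0, where it turned to −0.21. The median log2 ratio was −0.36 in dxo1 and −0.18 in Col-0 over the members, and 0.04 in dxo1 and 0.06 in Col-0 over all genes. The test of the difference between the genotypes, the interaction term, called no member and no gene in either direction, with a background of 0.0%. In it 7 members and 1332 genes had an unadjusted p under 0.05, and DESeq2 called 0 members. The NAD capture libraries of Col-0 differed from each other more than those of dxo1 (chi-square per degree of freedom 14.25 against 2.73). The lack of calls thus does not show equal ratios.

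AFB2 had 17.1 and 14.9 CPM in dxo1 NAD capture and 63.4 and 83.2 CPM in dxo1 total RNA (−2.19, SE 0.32, adjusted p = 0.000936). In Col-0 it had 29.1 and 12.4 CPM in NAD capture and 52.8 and 51.2 CPM in total RNA (−1.48, SE 0.35, adjusted p = 0.014). AFB3 had 52.1 and 45.6 CPM in dxo1 NAD capture and 119 and 124 CPM in total RNA, a log2 ratio of −1.31, and 43.0 and 52.0 CPM in Col-0 NAD capture and 100.8 and 101.6 CPM in total RNA, a log2 ratio of −1.07. TIR1 had log2 ratios of −0.98 in dxo1 and −0.97 in Col-0. In these 3 genes no NAD capture library reached a total RNA library of its genotype. AGO1 had 90.6 and 106 CPM in dxo1 NAD capture and 257 and 237 CPM in total RNA (−1.33, SE 0.30, adjusted p = 0.00723), and 138 and 72.2 CPM in Col-0 NAD capture and 293 and 267 CPM in total RNA (−1.44, SE 0.31, adjusted p = 0.00912). PHO2 had 24.2 and 26.6 CPM in dxo1 NAD capture and 155 and 137 CPM in total RNA (−2.53, SE 0.25, adjusted p = 0.000197), and its Col-0 log2 ratio was −1.11. ARF10, an auxin response factor cut by miR160, had the lowest Col-0 log2 ratio, −1.81 (adjusted p = 0.00209). Of the 16 listed genes of the RDR6 pathway and of RNA decay, 9 were lower in dxo1, DXO1 among them, and 8 in Col-0, and none was higher by edgeR. With library totals 3 were lower in dxo1 and 2 in Col-0, and with polyA RNA as denominator 7 were lower and 1 higher in dxo1 and 5 lower in Col-0.

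PORB, which makes chlorophyllide in the light, had 181 and 227 CPM in dxo1 NAD capture and 53.5 and 44.3 CPM in total RNA (2.06, SE 0.24, adjusted p = 0.000348), and 122 and 105 CPM in Col-0 NAD capture and 36.3 and 41.9 CPM in total RNA (1.53, SE 0.25, adjusted p = 0.00297). PLAT1, a PLAT domain protein, had log2 ratios of 1.44 in dxo1 and 1.68 in Col-0. SOS5 had 45.4 and 13.6 CPM in Col-0 NAD capture and 4.49 and 2.23 CPM in total RNA (2.84, SE 0.60, adjusted p = 0.00858), and AT4G18670 had a Col-0 log2 ratio of 1.92. In dxo1, TCP10 and ARF3 were also higher in NAD capture, with log2 ratios of 1.29 and 0.83, and AT1G06000 and AT1G49700 lower, with −1.99 and −1.83. AT1G49700 turned with polyA RNA as denominator, to 3.06 in dxo1 (adjusted p = 0.00275), where its Col-0 value was 4.52 (adjusted p = 0.00113). None of the 10 PPR members tested passed in either genotype by edgeR's quasi-likelihood test or by DESeq2, where 2 in dxo1 and 1 in Col-0 had an unadjusted p under 0.05. The NAD capture libraries held 1144896 to 3178702 gene counts, with 91.8 to 96.1% of all counts in entries that name no gene, so PPR levels of a few CPM rest on few reads.

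The direction depends on the scaling. With library totals in place of TMM factors, 4 members were lower and 16 higher in dxo1 and 3 lower and 9 higher in Col-0, while the median over all genes moved to 0.72 in dxo1 and 0.37 in Col-0. The background was then 3.78 and 30.2% in dxo1 and 2.64 and 11.9% in Col-0. With polyA RNA as denominator, 18 of 88 members were lower and 9 higher in dxo1, with a background of 15.1 and 15.4%, and 11 were lower and 8 higher in Col-0, with 8.69 and 9.96%. Without the NAD capture library labelled dxo1 replicate 1, 5 members were lower and 3 higher in dxo1, and without the total RNA library so labelled 9 were lower and 4 higher.

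GMUCT in dxo1 was set against polyA RNA of dxo1, which gives the uncapped and cleaved ends relative to the level of the same transcripts. Of 90 members tested, 33 were higher in GMUCT, where 32.7% of 20117 genes were, and 34 lower, where 32.0% were. Of 13 tested PPR members 8 were higher, as were HAM1, HAM2 and ARF10, and AFB2, ARF6 and LBA1 were lower. The median log2 difference was 0.14 over the members, 1.10 over the PPR members and 0.00 over all genes. GMUCT of Col-0 was not analysed here, so this is a comparison of assays in 1 genotype.

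The PPR gene AT1G63080 had 15.7 and 22.2 CPM in GMUCT and 4.53 and 3.32 CPM in polyA RNA, and was higher by 2.26 on the log2 scale (SE 0.25, adjusted p = 0.000108). AT1G63150 had 24.1 and 26.4 CPM in GMUCT and 5.81 and 6.05 CPM in polyA RNA, and AT1G63130 had 24.1 and 30.3 CPM in GMUCT and 8.97 and 5.37 CPM in polyA RNA, with log2 differences of 2.09 and 1.91. RPF3 had 16.8 and 21.1 CPM in GMUCT and 9.14 and 8.49 CPM in polyA RNA, a log2 difference of 1.10. None of the 13 was called lower, and AT1G63330 had no count in GMUCT or polyA RNA of dxo1. AT1G62590 had 2.75 and 3.55 CPM in GMUCT and 4.10 and 4.10 CPM in polyA RNA, and was the 1 with a value below 0. The NLR gene AT5G43730 had 3.67 and 5.38 CPM in GMUCT and no polyA count in dxo1, at least 31.9-fold higher in GMUCT, and AT5G38850 was higher by 1.29. AT5G43730 overlaps a noncoding gene, and the polyA RNA of Col-0 held no count of it either.

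**Figure D4:**
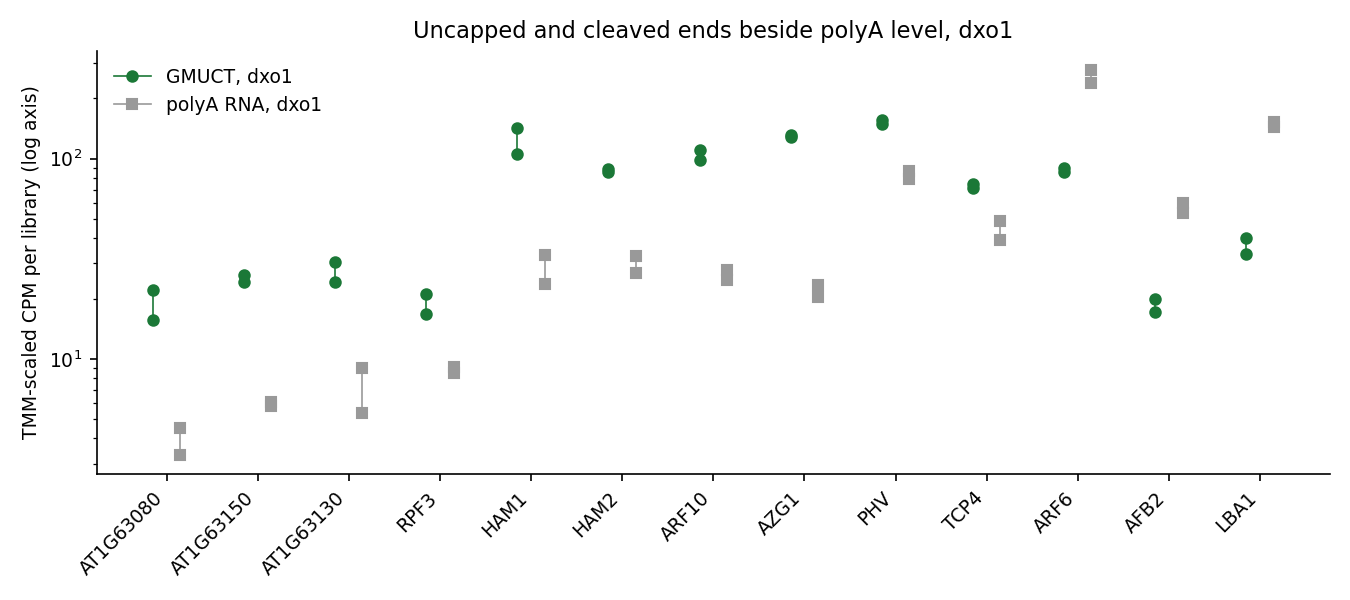
TMM-scaled CPM on a log axis of 13 members in GMUCT (circles) and polyA RNA (squares) of dxo1, with each library as a point. The PPR genes, HAM1, HAM2, ARF10, AZG1, PHV and TCP4 have both GMUCT libraries above both polyA libraries, and ARF6, AFB2 and LBA1 have them below.

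Members that microRNAs are known to cut were split. HAM1 had 105 and 142 CPM in GMUCT and 33.0 and 23.7 CPM in polyA RNA (2.12, SE 0.19, adjusted p = 4.22e-05), and HAM2 85.8 and 89.0 CPM in GMUCT and 32.5 and 26.8 CPM in polyA RNA (1.56). ARF10 had 98.2 and 111 CPM in GMUCT and 24.9 and 27.8 CPM in polyA RNA (1.99, SE 0.12, adjusted p = 6.66e-06). In these 3 genes both GMUCT libraries were above both polyA libraries. AFB2 had 17.04 and 19.99 CPM in GMUCT and 60.2 and 53.5 CPM in polyA RNA (−1.62, SE 0.13, adjusted p = 2.21e-05), TIR1 was lower by 0.65, and AFB3 had 197 and 229 CPM in GMUCT and 143 and 142 CPM in polyA RNA and was higher by 0.58. The 3 auxin receptors, which miR393 is known to cut, thus did not share a direction. PHO2, ARF3 and AGO1 were lower, by 0.67, 0.58 and 0.35.

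A further 9 members encode transcription factors that microRNAs are known to target, put together after their values were seen: TCP2, TCP3, TCP4 and TCP10 (miR319), ARF6 and ARF8 (miR167), ARF10 (miR160), AP2 (miR172) and PHV (miR166). Of these 5 were higher and 4 lower in GMUCT than in polyA RNA. TCP10, TCP2, PHV and TCP4 were higher by 0.99, 0.97, 0.87 and 0.73, and ARF8, AP2 and TCP3 lower by 0.94, 0.57 and 0.44. ARF6 had 85.7 and 89.9 CPM in GMUCT and 277 and 238 CPM in polyA RNA and was lower by 1.55. In polyA RNA, dxo1 over Col-0, 1 of the 9 rose (PHV, by 0.29) and 1 fell (ARF10, by 0.46), and in 21-22 nt small RNA AP2 alone was called.

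Of the members outside these groups, AZG1, a purine transporter, had the largest rise that has a fold, with 128 and 132 CPM in GMUCT and 20.4 and 23.2 CPM in polyA RNA (2.57, SE 0.11, adjusted p = 2.98e-06), and UGT75B1 followed with 2.10. LBA1 had 33.3 and 40.3 CPM in GMUCT and 152 and 144 CPM in polyA RNA (−2.01, SE 0.12, adjusted p = 7.87e-06), AT1G49700 1.16 and 1.25 CPM in GMUCT and 4.70 and 5.76 CPM in polyA RNA (−2.11), and UGT71C3 was lower by 1.85. Members with a large 21-22 nt gain in dxo1 did not go one way: GAE6 was higher by 1.72, GTE7 by 1.47 and AT1G06000 lower by 0.37. EXO, which had the largest gain, is not among those given here. Without the GMUCT library labelled dxo1 replicate 1, 33 members were higher and 30 lower of 91, and without the polyA library so labelled 33 and 28 of 94.

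**Figure D5:**
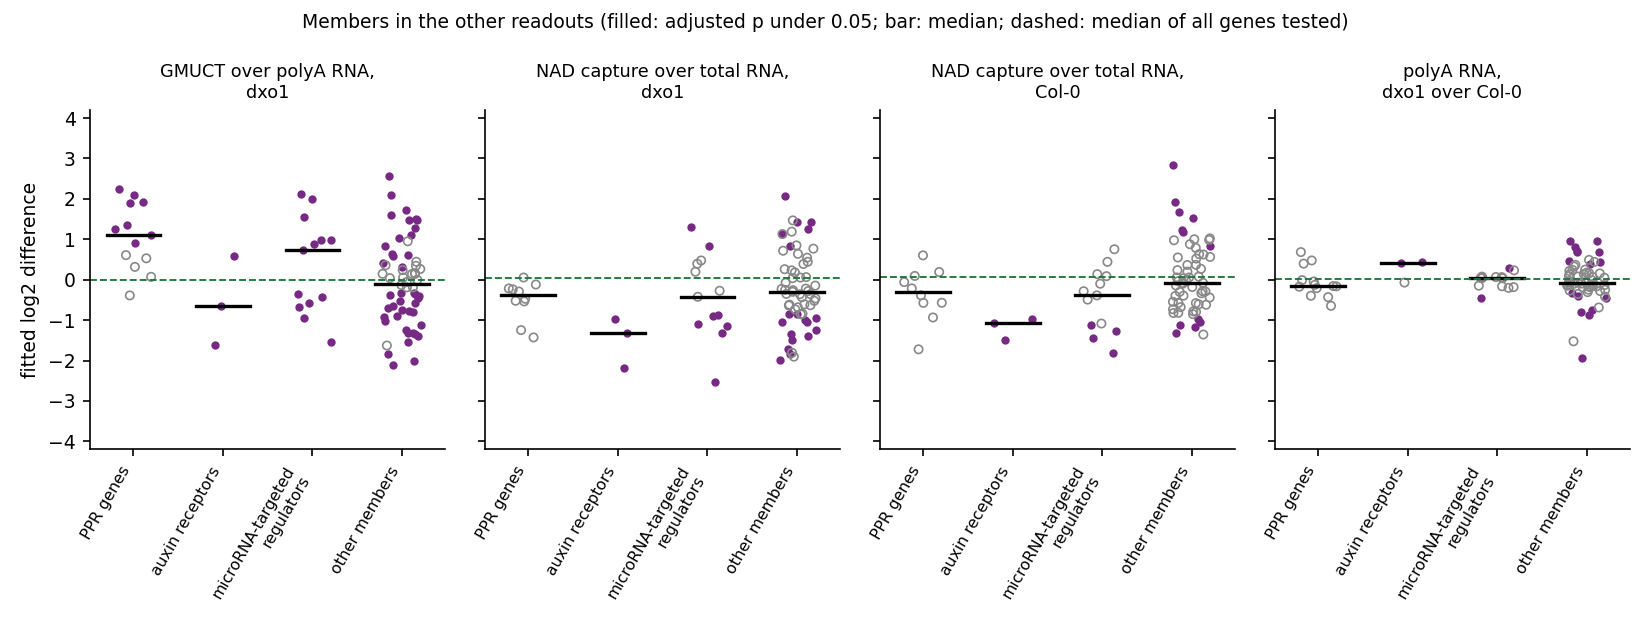
Fitted log2 difference of members in 4 comparisons, from left GMUCT over polyA RNA in dxo1, NAD capture over total RNA in dxo1 and in Col-0, and polyA RNA in dxo1 over Col-0, by group of members, where the regulators are the 9 transcription factors with AGO1, HAM1, HAM2 and PHO2. Filled points have an adjusted p under 0.05, bars are group medians, the dashed line is the median of all genes tested, and AT5G43730 is left out of the first panel since its polyA level is 0. PPR members lie mostly above the dashed line in GMUCT, auxin receptors below it in NAD capture, and most members near it in polyA RNA.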

How the data were processed

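Unopened flower buds were read in 20 libraries of 10 groups. The deposited values are raw counts. Gene counts of NAD capture, total RNA, polyA RNA and GMUCT come from 50 nt single-end reads, and the submitters' processing notes name cutadapt, STAR 2.4.2a and HTSeq with TAIR10. Small RNA counts per transcript, deposited by strand for lengths of 19 to 25 nt, come from a tool not given in the sources used here, and what the forward strand refers to is taken from the column names.

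The members and gene lists were chosen with earlier results of these data known. Differences were tested with edgeR 4.0.16 in R 4.3.3, using TMM factors, filterByExpr with a minimum count of 10, the quasi-likelihood test and Benjamini-Hochberg adjustment over all features tested, with a threshold of 0.05. The standard error is the absolute log2 difference divided by the square root of F. CPM are scaled by TMM factors, except for DXO1 and the marker lists, which use library totals. The 6 small RNA libraries shared one fit, with the 21 and 22 nt counts as library size. NAD capture and total RNA shared another, polyA RNA had its own, and GMUCT was fitted with all polyA libraries, so the comparisons that use dxo1 polyA RNA are not independent. The script was tested on simulated data with 200 changed genes. Entries that name no gene stayed out. Their share of counts was 90.8 to 96.1% in NAD capture and total RNA libraries and 18.2 to 28.3% in those of polyA RNA and GMUCT. Intervals and floors cover counting error only. No replicate pair agreed within sampling noise, with chi-square per degree of freedom from 1.24 to 28.96. Gene names and overlaps come from RefSeq (TAIR10.1), where 26675 of 27162 transcripts matched, and no coordinates are given since the builds differ.

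The genes named are the 10 members with the most Col-0 21-22 nt counts, the members in a list, the 4 largest rises and falls per comparison among called members whose libraries do not overlap, the members and transcripts next to each threshold, the called genes of the list of the RDR6 pathway and RNA decay in polyA RNA, and the members called higher in dxo1 rdr6 over dxo1. Other members were named after their values were seen. Alternatives were DESeq2 1.42.0 and its size factors, library totals, no filter, a replicate term, other length classes, strands and library sizes, another denominator, and each library left out.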

Additional observations from a re-analysis of the deposited data

Results flagged for a closer look

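Small RNA of 25 nt, a length outside the comparisons, stood out in dxo1 rdr6. It made up 92.1 and 88.0% of all small RNA counts in dxo1 rdr6, against 9.66 to 13.6% in the dxo1 and Col-0 libraries. On the members it made up 26.4 and 19.8% of counts in dxo1 rdr6, 0.783 and 0.995% in dxo1, and 0.777 and 0.679% in Col-0. The median member had 68.8% of its counts at 25 nt in dxo1 rdr6, 2.44% in dxo1 and 4.59% in Col-0. Every value of these 2 tables is even, which is so at all lengths.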

How the results depend on the processing

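Among called single genes, 497 values kept direction and call under the other settings, 48 lost the call and 34 reversed; with a library left out 319 kept both and 82 lost the call. In dxo1 rdr6 over dxo1 for 21-22 nt, against 10 members higher and 24 lower, 1 and 4 were called with no filter, 0 and 73 with all lengths, 1 and 97 with the library size from all lengths, and 6 and 45 with that from 24 nt counts, the last chosen after seeing the data. With 22 nt counts alone 6 were higher, with the forward strand alone (chosen after seeing the data) 6, and with only dxo1 and dxo1 rdr6 libraries 12 were lower of 59 tested. For 24 nt, against 14 higher and 3 lower, the counts were 1 and 15 with no filter and 6 and 1 with only dxo1 and dxo1 rdr6 libraries, and 7 were lower with library totals. In NAD capture over total RNA, library totals left 3 lower in Col-0 and gave 16 higher and 4 lower in dxo1, and in dxo1 DESeq2 gave 5 higher and no filter 13. Halving the dxo1 rdr6 counts, added after seeing the data, moved no count by over 1.5 times.

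The reversals lay mostly in members that rose in dxo1 rdr6. With all lengths the log2 differences were −0.71 for AT5G16640, −0.63 for AT1G79060, −0.69 for AT5G39370, −2.02 for AT1G12775, −0.69 for AP2, −0.0305 for AT7SL-1, −2.16 for AT1G06000, −1.25 for AT5G42090 and −1.04 for UGT71C3. With the library size from all lengths they were −0.64 for AT5G16640, −0.84 for AT1G79060, −1.26 for AT5G39370, −2.26 for AT1G12775, −1.39 for AP2, −2.32 for AT7SL-1, −2.51 for AT1G06000, −1.69 for AT5G42090 and −1.75 for UGT71C3. On the reverse strand alone, chosen after seeing the data, they were −0.26 for AT4G21366, −2.91 for AT5G16640, −0.24 for AT1G79060, −0.93 for AT5G42090 and −0.49 for UGT71C3. On the forward strand alone they were −1.37 for AT1G12775 and −2.35 for AT7SL-1, and with 21 nt alone −0.21 for AT7SL-1. With 22 nt alone AT5G16640 had −1.12, and AT1G12775 and AP2, with no 22 nt count in dxo1 rdr6, had −7.83 and −7.71, which are set by the fit and are no folds. With no filter AT1G12775 had −0.0363, AT7SL-1 −0.0582 and AT1G06000 −0.33. With polyA RNA as denominator PORB had −0.21 in Col-0 and AT1G49700 3.06 in dxo1. The library size from all lengths put the median over all transcripts at −4.32. The cause of the reversals was not tested.

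With each library left out in turn, a lone library being assumed to vary like the others, members higher and lower were 3 to 8 and 17 to 47 for 21-22 nt, 5 to 11 and 1 to 7 for 24 nt, 0 to 24 and 0 to 21 in polyA RNA, 3 to 14 and 5 to 35 in NAD capture over total RNA of dxo1, 2 to 16 and 1 to 30 in that of Col-0, 0 to 1 and 0 to 15 for the difference of the NAD ratios, and 31 to 36 and 26 to 34 in GMUCT over polyA RNA. The polyA extremes were without Col-0 replicate 1 (0 and 0) and dxo1 replicate 2 (24 and 18). In Col-0 NAD capture, 30 were lower without NAD capture Col-0 replicate 1 and 1 without either total RNA Col-0 library. For the difference of the NAD ratios the upper end of the lower calls came without NAD capture Col-0 replicate 2. Except in the 21-22 nt fits without a dxo1 library, the share of all features called was not counted in these fits. Their counts show how far the calls depend on a library and are no result about the members.

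Same-numbered libraries are not pairs by their labels, and their deviations correlated at −0.039 to 0.0271 in small RNA and at 0.563 between dxo1 polyA RNA and GMUCT, with 2 libraries a group. With a replicate block 8 members were higher for 24 nt, and 22 of the 24 members lower for 21-22 nt were called. Depth also limits the small RNA: 12 members had no 21-22 nt count in dxo1 rdr6. In dxo1 replicate 2 the median member had 8 such counts, and 51 members had under 10.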
